A study of Mus musculus with 2 samples.

Results

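The genes described here are 10 members of the interleukin-1 (IL-1) family and its receptors, chosen by name from the 32285 genes listed for each library. They are the agonist cytokines Il1a, Il1b, Il18 and Il33, the receptor antagonist Il1rn, the signalling receptors Il1r1, Il18r1 and Il1rl1, the shared co-receptor Il1rap and the decoy receptor Il1r2. All 10 were found in both libraries, and none was used to name a cell class. Their transcripts were counted as unique molecular identifiers (UMIs) in single cells of mouse pancreatic tumours. KPC cells, a line of mouse pancreatic cancer cells, had been implanted into the pancreas 21 days earlier. The control mice were Porcnfl/fl littermates. The knockout mice were Csf1r-Cre;Porcnfl/fl, so both genotypes carried the floxed allele. Porcn encodes the enzyme that lipid-modifies Wnt proteins for secretion, and the libraries are set side by side to see which transcripts differ once Csf1r-expressing cells lack it. Csf1r drives Cre in monocytes and macrophages and is also known to be active in other leukocytes. The Cre was in the host mice and not in the implanted cells. Tumours of 5 mice were pooled into 1 library per genotype. There is therefore no spread between replicates, no test between genotypes is possible, and each difference below is one between 2 libraries.

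IL-1α and IL-1β bind IL-1R1, which needs the co-receptor IL-1RAP to signal through MyD88 to NF-κB. IL-1RA, the product of Il1rn, occupies the same receptor without signalling, and IL-1R2 binds the cytokine but lacks a signalling domain. IL-18 acts mainly on T and NK cells through IL-18R1, and IL-33 acts through ST2, the product of Il1rl1, on regulatory T cells, type 2 lymphoid cells, mast cells and basophils. IL-1β and IL-18 are made as precursors that caspase-1 cleaves, whereas IL-33 and IL-1α are held in the cell and released on damage. In pancreatic tumours, IL-1 is known as a signal from myeloid or tumour cells to fibroblasts, so the transcripts are described below by role and by the class of cell that held them.

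The control library held 173934025 UMIs in 13766 barcodes and the knockout library 137527647 UMIs in 12251 barcodes, of which 11516 and 10467 cells were kept. The libraries shared 46 barcodes, 38 of them among kept cells. Clusters were named from marker lists and carry the ending "-like". The lists' summed levels in their own classes were 158897 and 79331 CPM (the usual counts-per-million scale, relative to all UMIs of the class) for neutrophil-like cells, 8309 and 10094 CPM for monocyte/macrophage-like cells, and 5187 and 5018 CPM for T-like cells, control first. Unnamed clusters held 3469 control and 1417 knockout cells. T-like cells made up 1.62% of control and 15.4% of knockout cells. Porcn gave 8 UMIs in 506 control and 4 UMIs in 560 knockout monocyte/macrophage-like cells and none in neutrophil-like cells, too few to check the deletion. These are 3′ tags, and their place relative to the deleted part is not given in the sources used here. Levels below are CPM of a class or cluster, and intervals in parentheses are exact 95% intervals that cover counting error only.

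IL-1 family transcripts had 3 main sources. Il1a, Il1b and Il1rn were highest in neutrophil-like and monocyte/macrophage-like cells, together with Il1r2 and Il1rap in neutrophil-like cells. Il33 and Il1r1 came from tumour cells and stroma, and Il18 from tumour, stromal and myeloid cells. Epithelial/tumour-like cells held 114822660 of the 168741010 kept control UMIs of all genes and 86626379 of the 129252602 knockout ones. That class's shares of a gene's UMIs below stand beside this. Il18r1 was highest in T-like and NK-like cells, and the low level of Il1rl1 was highest in T-like cells. Of the 10 genes, 9 were among the variable genes that formed the clusters, so differences in level between clusters are descriptions. Over the 5 classes large enough to compare (100 cells or more on both sides), the number of members at least 2-fold apart between libraries, among those with at least 20 UMIs in the class, was largest in neutrophil-like and T-like cells, with 4 of 7 in each. Of all genes counted, 7.42% were as far higher and 7.29% as far lower in neutrophil-like cells, and 4.35% and 5.84% in T-like cells. Both counts of members depended on the class definition, and the 4 in T-like cells rested on few control UMIs, as given below.

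**Figure D1:**
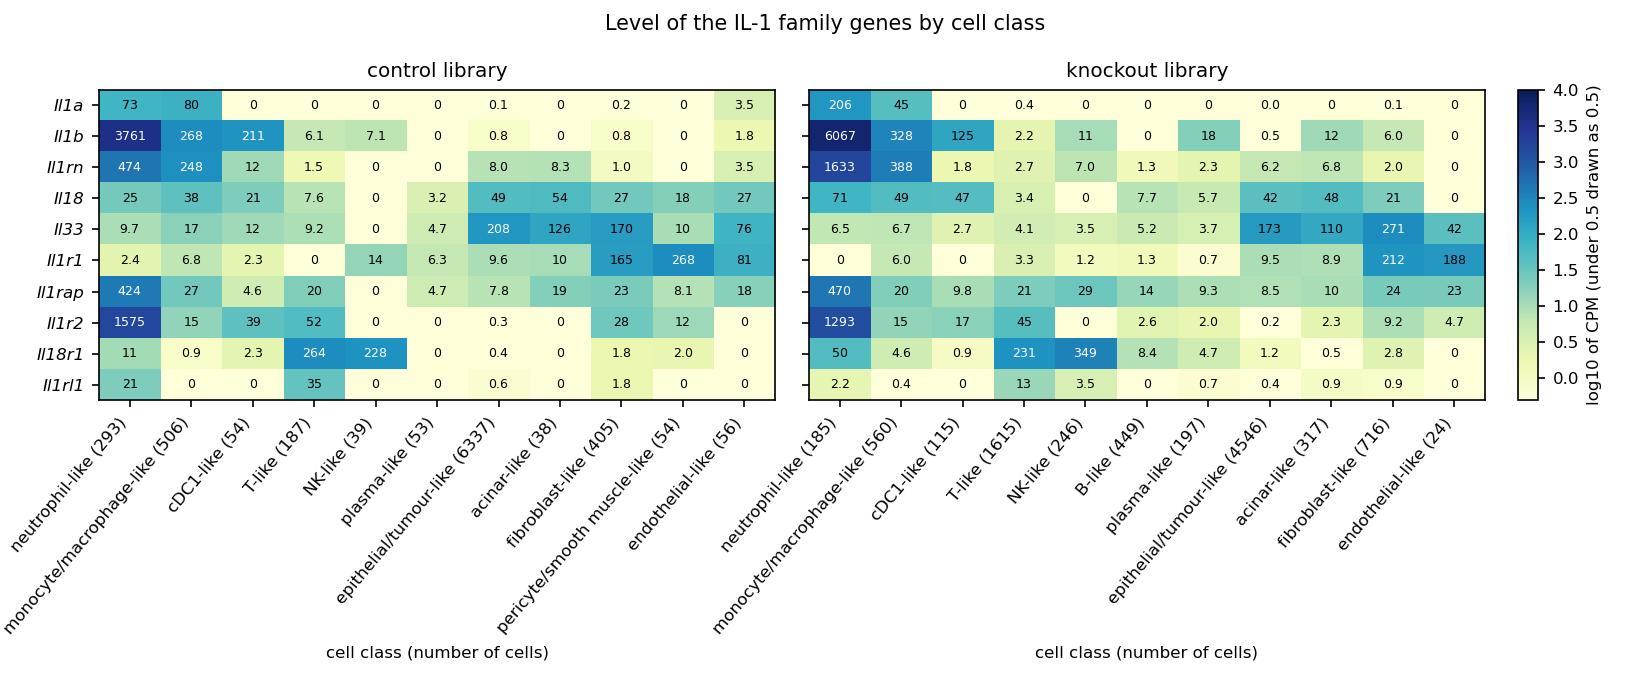
Level of each of the 10 genes (rows) in the main cell classes with at least 20 cells in that library (columns, number of cells in parentheses), in the control library (left) and the knockout library (right). Printed values are CPM of the class, and colour is their log10. Il1b stands at 3761 CPM in control and 6067 CPM in knockout neutrophil-like cells, and Il33 at 208 and 173 CPM in epithelial/tumour-like cells.

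Il1b, the gene of the secreted agonist IL-1β, was above all a neutrophil transcript. Neutrophil-like cells were 293 of the control and 185 of the knockout cells, yet they held 75.7% of the control library's Il1b UMIs and 64.8% of the knockout library's. Monocyte/macrophage-like cells held a further 15.3% and 21.5%. In neutrophil-like cells Il1b stood at 3761 CPM in the control and 6067 CPM in the knockout library, a ratio of 1.61 (1.53 to 1.70). A UMI was seen in 71.7% of control and 80.0% of knockout neutrophil-like cells. After each cell was thinned to 1000 UMIs these shares were 69.9% and 76.5%, against 1.12% and 0.190% of thinned T-like cells, which should lack the gene. Median depth was 1709 and 1874 UMIs in neutrophil-like cells and 2823 and 3349 UMIs in T-like cells. The intervals of these thinned shares overlapped (64.1% to 75.2% and 69.7% to 82.4%).

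The 3 neutrophil-like clusters did not move alike. Cluster 21, led by S100a9, S100a8 and Retnlg, a gene of mature blood neutrophils, held 106 control and 33 knockout cells. There Il1b was 9000 CPM in the control and 6913 CPM in the knockout library, a ratio of 0.768 (0.690 to 0.853). Cluster 33, led by Cxcl2 and G0s2, held 133 and 141 cells. There Il1b was 6153 CPM in the control and 7971 CPM in the knockout library, a ratio of 1.30 (1.21 to 1.38). Cluster 26, led by the granule gene Camp, held 54 and 11 cells and had little Il1b, 46.6 and 248 CPM. With the clusters weighted alike in both libraries, the log2 ratio of Il1b in the class went from 0.69 to 0.16. With the stricter cell filter (at least 1000 genes, mitochondrial share up to 10%), which left 78 and 56 neutrophil-like cells, it was 1.25.

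Il1b in monocyte/macrophage-like cells was 268 CPM in the control and 328 CPM in the knockout library (ratio 1.22, 1.10 to 1.35). The log2 ratio of 0.29 was 0.03 with clusters weighted alike and -0.01 as a mean over cells. Of its 4 clusters, 1 was higher in the knockout library, 1 lower, and in 2 the interval spanned equality. The higher one was cluster 30, with Arg1, Fcgr1 and Ms4a6d, which carried the monocyte gene Ly6c2 at 777 and 1518 CPM. Its Il1b was 291 CPM in 52 control cells and 687 CPM in 154 knockout cells, a ratio of 2.36 (1.76 to 3.21). The lower one was cluster 16, with Arg1, Mmp12 and the complement genes C1qa and C1qb, at 197 and 121 CPM. Cluster 19, led by Ccl8 and the same C1q genes, stood at 312 and 271 CPM. Type 1 dendritic cells (cDC1-like), which cross-present antigen, had Il1b at 211 CPM in 54 control and 125 CPM in 115 knockout cells. Few of them held it: the 91 control UMIs lay in 9 cells and the 140 knockout UMIs in 12 cells. Of the knockout UMIs, 108 were in 1 cell.

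Outside these classes Il1b was scarce. In fibroblast-like cells it was past 2-fold, with 4 UMIs in the control library (0.812 CPM) and 42 in the knockout library (5.97 CPM). All 42 lay in 10 of 716 cells and 23 of them in 1 cell. Of these 10 cells, 2 also carried at least 2 of 9 neutrophil markers, against 3.54% of the other knockout fibroblast-like cells. With the stricter cell filter the log2 ratio was 0.64 in place of 2.59. Acinar-like cells of the knockout library had 50 Il1b UMIs, of which 48 were in 1 cell. In epithelial/tumour-like cells Il1b was 0.810 CPM in the control and 0.450 CPM in the knockout library, with a UMI in 63 and 37 cells. The direction turned with called doublets kept, to a log2 ratio of 0.19 from -0.83.

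**Figure D2:**
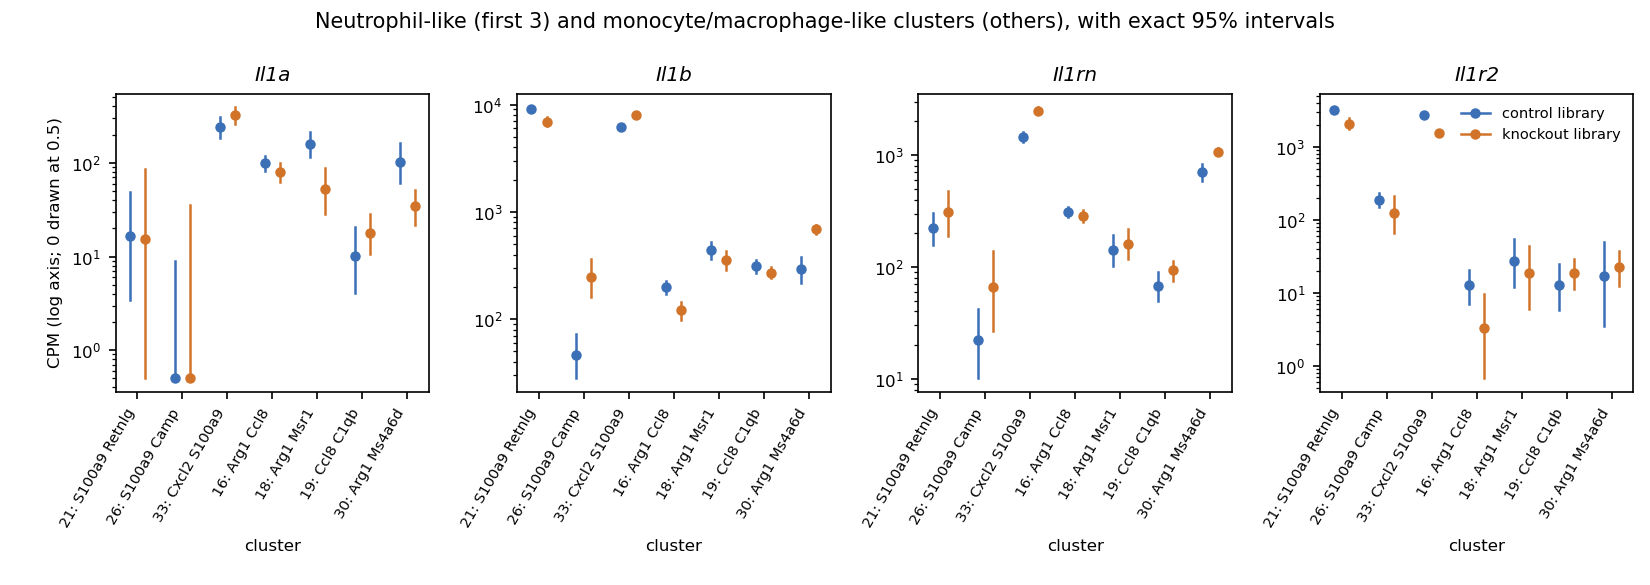
CPM (log axis) of Il1a, Il1b, Il1rn and Il1r2 in the 3 neutrophil-like and 4 monocyte/macrophage-like clusters, named by number and 2 leading genes. Points are control (blue) and knockout (orange) libraries with exact 95% counting intervals. Il1rn in cluster 33 is at 1447 CPM in the control and 2487 CPM in the knockout library, and Il1r2 there at 2696 and 1539 CPM.

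Il1a encodes IL-1α, an agonist of the same receptor, and was far sparser: 266 UMIs in the control and 242 in the knockout library. Monocyte/macrophage-like cells held 70.7% of the control and 52.9% of the knockout UMIs, and neutrophil-like cells 22.6% and 39.3%. In monocyte/macrophage-like cells Il1a was 80.4 CPM in the control and 45.03 CPM in the knockout library, a ratio of 0.560 (0.444 to 0.704). The log2 ratio of -0.83 was -0.15 with the stricter cell filter. It was lower in cluster 18 (159 and 52.5 CPM) and cluster 30 (103 and 34.6 CPM), and the interval spanned equality in clusters 16 and 19. In neutrophil-like cells it went the other way, 72.7 CPM in the control and 206 CPM in the knockout library, a ratio of 2.83 (2.03 to 3.98). Of those UMIs, 57 of 60 and 94 of 95 came from cluster 33, where the levels were 241 and 322 CPM and the interval of the ratio spanned 1 (0.949 to 1.89). Cluster 33 was 133 of 293 control and 141 of 185 knockout neutrophil-like cells, and with clusters weighted alike the class's log2 ratio was 0.41 in place of 1.49. No T-like cell held an Il1a UMI after thinning to 1000 UMIs, which allows shares of up to 1.69% in the control and 0.190% in the knockout library, against 5.73% and 11.5% of neutrophil-like cells.

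Upstream of the start site, Il1a, Il1b and Il33 have a TATA box at the place where few genes have one. These windows are shown for that reason and were picked after the matches were seen. Each is the 250 bases before a start site in RefSeq on GRCm38.p6, read 5′ to 3′ on the gene's strand. Capitals mark matches to the TATA box TATAAA, to the AP-1 motif TGANTCA or to the C/EBP motif TTGCNNAA.
Il1a (chr2:129309973-129310222, minus strand): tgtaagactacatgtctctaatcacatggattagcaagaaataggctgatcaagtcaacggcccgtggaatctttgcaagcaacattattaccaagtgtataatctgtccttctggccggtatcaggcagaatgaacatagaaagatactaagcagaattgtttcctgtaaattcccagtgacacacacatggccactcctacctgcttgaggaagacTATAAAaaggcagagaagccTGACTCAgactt
Il1b (chr2:129371140-129371389, minus strand): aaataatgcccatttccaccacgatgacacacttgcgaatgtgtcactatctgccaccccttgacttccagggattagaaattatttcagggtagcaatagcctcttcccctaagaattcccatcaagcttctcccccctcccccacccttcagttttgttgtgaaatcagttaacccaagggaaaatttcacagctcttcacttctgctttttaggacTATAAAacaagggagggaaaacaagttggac
Il33 (chr19:29945540-29945789, plus strand, one of its listed starts): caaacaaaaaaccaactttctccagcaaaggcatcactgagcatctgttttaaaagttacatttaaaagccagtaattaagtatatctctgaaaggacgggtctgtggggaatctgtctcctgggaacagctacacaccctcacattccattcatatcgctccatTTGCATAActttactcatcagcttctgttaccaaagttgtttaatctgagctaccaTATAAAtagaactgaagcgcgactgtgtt
The TATAAA match begins 32 bases before the start of Il1a, 31 before Il1b and 29 before this start of Il33. Of 32851 RefSeq windows of the same length, 1.75% have TATAAA on the gene's strand beginning 25 to 35 bases before the start. On either strand anywhere in the window, 12.4% hold TATAAA, 6.75% hold TGANTCA, a palindrome that matches both strands at once, and 9.56% hold TTGCNNAA. Il1a also has TGANTCA beginning 12 bases before its start, and this start of Il33 has TTGCNNAA 85 bases before it. Both strands were also searched for the κB motif by its usual consensus (7.25% of windows) and the PU.1 motif GAGGAAGT (2.44%), with no match in these 3 windows. A match is a description of the letters only.

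Il1a and Il1b lie 54.6 kb apart on the minus strand of chromosome 2 (GRCm38, 129299610 to 129309972 and 129364570 to 129371139), and Il1rn lies on the same chromosome (24336853 to 24351494, plus strand). Their sources differed although they are neighbours: cluster 21 had 1632 and 446 UMIs of Il1b and 3 and 1 of Il1a.

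Il1rn is the gene of the receptor antagonist. In neutrophil-like cells it stood at 474 CPM (391 UMIs) in the control and 1633 CPM (754 UMIs) in the knockout library, a ratio of 3.45 (3.05 to 3.905). The thinned share of neutrophil-like cells with an Il1rn UMI was 34.4% in the control and 60.1% in the knockout library, and the unthinned share 43.3% and 70.3%. The intervals of the thinned shares did not meet (28.8% to 40.3% and 52.6% to 67.3%), and in T-like cells the thinned share was 0% in the control, where up to 1.69% is allowed, and 0.380% in the knockout library. Within cluster 33 it was 1447 CPM in the control and 2487 CPM in the knockout library, a ratio of 1.72 (1.51 to 1.96). Within cluster 21 it was 221 and 310 CPM, and the interval of the ratio spanned 1 (0.778 to 2.46). With the clusters weighted alike the class's log2 ratio was 0.78 in place of 1.78, and with the stricter cell filter it was 2.96. At least 2 of 12 monocyte/macrophage markers were found in 3.94% of control neutrophil-like cells with Il1rn and 8.43% of those without it, and in 14.6% and 10.9% in the knockout library. Cells with such markers were thus more frequent in the knockout class, where Il1rn, Il1a and Il18 were higher, and their part in these values was not tested. The class's summed monocyte/macrophage markers were 682 and 667 CPM.

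Monocyte/macrophage-like cells carried Il1rn at 248 CPM in the control and 388 CPM in the knockout library, a ratio of 1.57 (1.42 to 1.74). Again cluster 30 led, with 702 CPM in the control and 1069 CPM in the knockout library (ratio 1.52, 1.26 to 1.86), while the other 3 clusters had intervals that spanned 1. Epithelial/tumour-like cells held 41.6% of the control and 20.6% of the knockout Il1rn UMIs, below that class's part of all UMIs. The level there was low, 8.004 and 6.19 CPM, beside 8.28 (4 UMIs) and 6.76 CPM in acinar-like cells. Thinned shares were 0.697% and 0.750%, against 0.380% of knockout T-like cells and a floor of 1.69% in control ones. In epithelial/tumour-like cells the Il1rn UMIs were spread over 601 control and 376 knockout cells, at most 12 UMIs in any cell. Of these cells, 4.99% and 2.93% had at least 2 monocyte/macrophage markers.

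The balance of agonist to antagonist transcripts can be read as Il1b UMIs per Il1rn UMI, both counted as 3′ tags and not divided by length. In neutrophil-like cells it was 7.94 (7.15 to 8.84) in the control and 3.72 (3.43 to 4.03) in the knockout library. It was 40.8 and 22.3 in cluster 21 and 4.25 and 3.20 in cluster 33. In monocyte/macrophage-like cells it was 1.08 and 0.843. Cluster 30 went the other way, 0.415 (0.293 to 0.579) in the control and 0.642 (0.570 to 0.723) in the knockout library. Within neutrophil-like cells both transcripts were often together: 47.1% of control and 73.0% of knockout cells with Il1b also had Il1rn, against 33.7% and 59.5% of cells without Il1b. The control cells without Il1b were deeper (median 3242 UMIs against 1674).

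Il1r2 and Il1rap were the receptors of neutrophil-like cells, and Il1r1 was not. Il1r2, the decoy receptor, stood at 1575 CPM in the control and 1293 CPM in the knockout library, a ratio of 0.821 (0.744 to 0.905). This class direction turned with each cell classed by its own markers (log2 ratio 0.17 from -0.28) and with the stricter cell filter (0.04). It was lower in the knockout library within both larger clusters: 3232 and 2077 CPM in cluster 21 (ratio 0.643, 0.529 to 0.777) and 2696 and 1539 CPM in cluster 33 (ratio 0.571, 0.505 to 0.645). Cluster 26 had 189 and 124 CPM, with an interval that spanned 1. The thinned share of neutrophil-like cells with Il1r2 was 62.4% in the control and 55.7% in the knockout library, with intervals that overlapped, against 0.0317% and 0% of epithelial/tumour-like cells at median depths of 15442 and 16603 UMIs. Il1rap, the co-receptor, stood at 424 and 470 CPM in the class (ratio 1.11, 0.931 to 1.32). It differed in cluster 21 (993 and 372 CPM, ratio 0.375, 0.234 to 0.576) while in cluster 33 (618 and 650 CPM) the interval of the ratio spanned 1. Il1r1, the signalling receptor, gave 2 UMIs in the 293 control and 0 in the 185 knockout neutrophil-like cells. For the knockout cells a count of 0 allows up to 6.50 CPM. In leukocyte clusters as a whole there were 34.3 Il1r2 UMIs per Il1r1 UMI in the control and 19.2 in the knockout library.

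Of the 7 members with at least 20 UMIs in neutrophil-like cells, 4 were at least 2-fold higher in the knockout library and 0 lower, beside 7.42% and 7.29% of all 5785 genes counted there. The 4 were Il1a, Il1rn, Il18 and Il18r1, and the members' median log2 ratio was 1.47, beside -0.05 over all genes. Only 1 of the 4, Il18r1, passed 2-fold with the clusters weighted alike. Il18, the gene of the interferon-gamma-inducing cytokine IL-18, rested on 21 and 33 UMIs (25.4 and 71.5 CPM). Il18r1 rested on 9 UMIs in 8 control cells and 23 UMIs in 6 knockout cells, 11 of them in 1 cell. Of those 6 cells, 2 had at least 2 of 11 T markers, against 1.12% of the other knockout neutrophil-like cells, and the class's summed T markers were 31.5 CPM in the control and 158 CPM in the knockout library. The part of T cell RNA in this value was not tested. Il1rl1 had 17 UMIs in 3 control neutrophil-like cells, 15 of them in 1 cell, and 1 UMI in the knockout library. Mast and basophil markers summed to 412 and 356 CPM in the control class and 75.8 and 86.6 CPM in the knockout class.

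**Figure D3:**
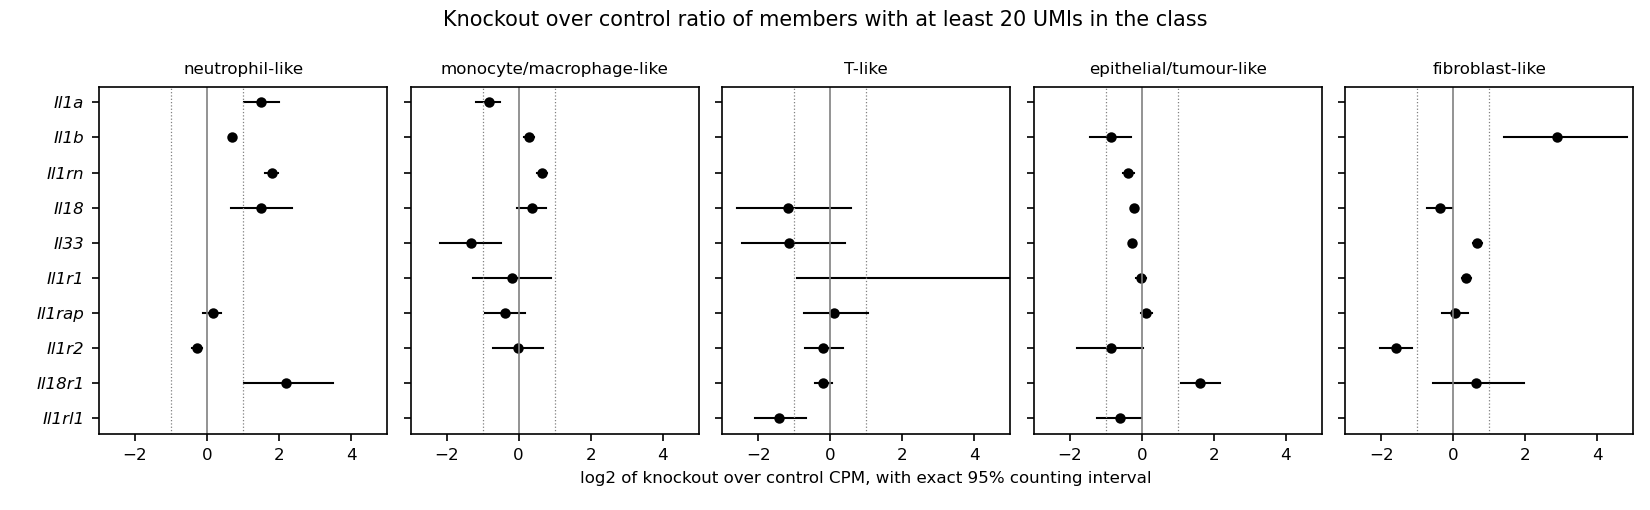
Log2 of the knockout over control CPM for members with at least 20 UMIs in a class, in the 5 compared classes, with exact 95% counting intervals and no pseudocount; the grey line is equality and dotted lines are 2-fold. Il1rn in neutrophil-like cells is at 3.45-fold, and Il1r2 in fibroblast-like cells at 0.332. Il1r1 in T-like cells had 0 control UMIs, so its interval has no upper end and no point is drawn.

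In monocyte/macrophage-like cells, 8 members were counted, 0 of them 2-fold higher and 1 lower in the knockout library, beside 2.74% and 2.96% of 10196 genes. The lower one was Il33, with 39 control and 19 knockout UMIs (16.7 and 6.68 CPM) in 18 and 12 cells. Of these 18 and 12 cells, 5 and 3 had at least 2 epithelial/tumour markers. The class's summed epithelial/tumour markers were 324 CPM in the control and 198 CPM in the knockout library, and the part of tumour RNA in the value was not tested. With clusters weighted alike the log2 ratio was -0.97 in place of -1.28. Il18 in this class was 38.1 and 48.9 CPM, and Il1rap 26.5 and 20.4 CPM, both with intervals that spanned equality.

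Il33, the alarmin that ST2 recognises, was the most abundant member, with 35603 UMIs in the control and 19748 in the knockout library. Epithelial/tumour-like cells held 67.2% and 75.9% of them. The control share was near the class's part of all control UMIs, and the knockout share was above its part of all knockout UMIs. Il33 stood at 208 CPM in the control and 173 CPM in the knockout library in this class, a ratio of 0.830 (0.813 to 0.847). It was lower in the knockout library in 7 of the 8 epithelial/tumour-like clusters, and in cluster 0, led by Muc5ac, a mucin of gastric surface cells, it was 79.8 and 80.8 CPM. The highest level among these 8 was in cluster 5, led by Tnnt2, Hmga2 and Grem1, an antagonist of bone morphogenetic proteins: 565 CPM in 930 control and 350 CPM in 1262 knockout cells (ratio 0.619, 0.601 to 0.637). Cluster 7 had 184 and 104 CPM (ratio 0.566), cluster 2 had 208 and 121 CPM (ratio 0.580), and the small cluster 8, with the intestinal genes Lgals4 and Tff2, 69.4 and 19.6 CPM (ratio 0.283, 0.197 to 0.397). Cluster 5 was 930 of 6337 control and 1262 of 4546 knockout cells of the class, and the class's log2 ratio was -0.58 with clusters weighted alike in place of -0.27. Unnamed cluster 4, with Hmga2 and Dkk2, carried Il33 at 417 and 386 CPM in 959 control and 207 knockout cells. Its best-scoring marker list was the epithelial/tumour one. The class's shares of Il33 UMIs above therefore depend on this cluster being left out.

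Fibroblast-like cells went the other way. Il33 there was 170 CPM in 405 control and 271 CPM in 716 knockout cells, a ratio of 1.59 (1.47 to 1.73). The thinned share of cells with Il33 was 14.1% in the control and 17.02% in the knockout library, with intervals that overlapped, and 1.12% and 0.380% in T-like cells. The higher level depended on how fibroblast-like cells were delimited: with called doublets kept the class held 719 and 832 cells and the log2 ratio was 0.06 in place of 0.67. Endothelial-like cells had 76.1 and 42.2 CPM of Il33 from 43 and 9 UMIs.

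Of the Il18 UMIs, 71.0% in the control and 73.2% in the knockout library lay in epithelial/tumour-like cells, near that class's part of all UMIs. By mean level over both libraries, Il18 was highest in neutrophil-like cells among the 5 compared classes, from 21 control and 33 knockout UMIs. In the control library alone Il18 was higher in epithelial/tumour-like than in neutrophil-like cells. Neutrophils were also the class chosen as lacking Il18, to gauge the level that free RNA gives. The part of free RNA in the neutrophil-like level of Il18 was not tested. In epithelial/tumour-like cells it stood at 48.9 CPM in the control and 41.8 CPM in the knockout library (ratio 0.855, 0.820 to 0.892). The log2 ratio of -0.23 was -0.01 with clusters weighted alike. The tumour cluster highest in Il33 was lowest in Il18 and the reverse: cluster 5 had 15.7 and 13.2 CPM of Il18, and cluster 8 had 82.3 and 72.6 CPM. In 6 of the 8 clusters the interval of the ratio spanned 1 and in 2 it lay below. Monocyte/macrophage cluster 30 was above all 8 of them, with 91.4 CPM in the control and 116 CPM in the knockout library. The thinned share of epithelial/tumour-like cells with Il18 was 4.54% and 3.73%, beside 3.23% and 6.56% of neutrophil-like cells with intervals that overlapped, so these shares set no order between the classes. The unthinned shares were 44.6% and 42.04%.

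**Figure D4:**
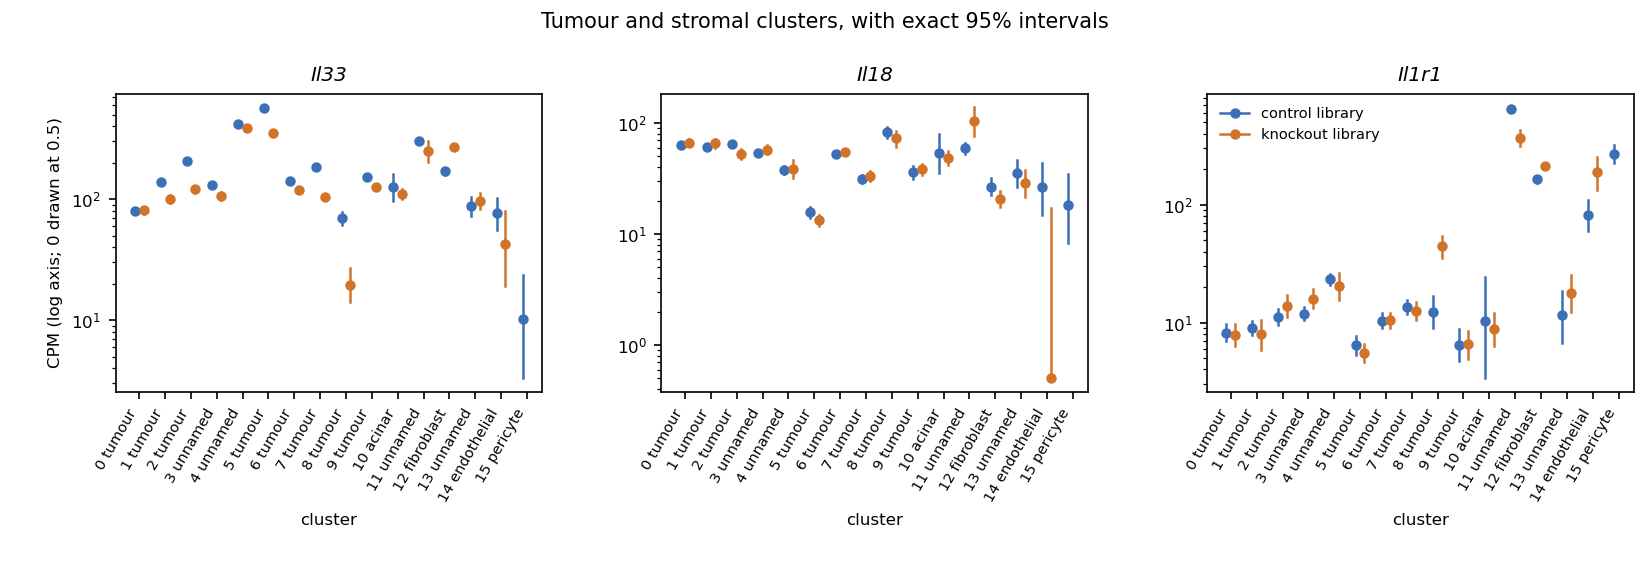
CPM (log axis) of Il33, Il18 and Il1r1 in the 16 tumour and stromal clusters of the first clustering, with exact 95% counting intervals, control in blue and knockout in orange; a library with under 10 cells in a cluster is not drawn. Among the 8 epithelial/tumour-like clusters, cluster 5 has the highest Il33 (565 and 350 CPM) and the lowest Il18, unnamed cluster 4 has 417 and 386 CPM of Il33, and cluster 11 the highest Il1r1 (648 and 367 CPM).

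Il1r1, the receptor through which IL-1α and IL-1β signal, was a stromal transcript. Its highest level was in unnamed cluster 11, led by Saa3, Timp1 and Col24a1 and carrying the fibroblast genes Lum, Dcn and Col1a1: 648 CPM in 265 control and 367 CPM in 47 knockout cells (ratio 0.566, 0.481 to 0.663). This cluster held 3345 of the control library's 6079 Il1r1 UMIs. The marker list that scored best for it was the mesothelial one, with 6 markers detected. Whether its cells were fibroblasts or mesothelial cells was not tested. Over all kept cells Il1r1 was 36.0 CPM in the control and 21.8 CPM in the knockout library. Fibroblast-like cells had 165 CPM in the control and 212 CPM in the knockout library (ratio 1.29, 1.18 to 1.40), and held 13.3% and 52.8% of the libraries' Il1r1 UMIs. The direction turned where the class was drawn wider, with 650 to 719 control and 707 to 832 knockout cells: the log2 ratio was -0.96 with called doublets kept, -0.90 at Leiden resolution 0.5 and -0.84 with each cell classed by its own markers, against 0.36. The thinned share of fibroblast-like cells with Il1r1 was 13.9% and 19.4%, and 0.717% and 0% in neutrophil-like cells. Pericyte/smooth muscle-like cells had 268 CPM in 54 control cells, and endothelial-like cells 81.5 and 188 CPM from 46 and 40 UMIs. In epithelial/tumour-like cells Il1r1 was 9.59 and 9.50 CPM (ratio 0.991, 0.904 to 1.09), with 12.4 and 44.2 CPM in cluster 8. Il33 and Il1r1 were often in the same fibroblast-like cell, 65.5% and 68.3% of cells with Il1r1 having Il33 against 43.6% and 44.6% of the rest, but cells with Il1r1 were deeper (median 13204 against 6700 UMIs in the control and 10422 against 6674 in the knockout library).

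Of 7 members counted in fibroblast-like cells, 1 was at least 2-fold higher (Il1b, above) and 1 lower in the knockout library, beside 4.54% and 2.97% of 12675 genes. The lower one was Il1r2, the decoy receptor, at 27.8 CPM (137 UMIs in 60 cells) in the control and 9.24 CPM (65 UMIs in 54 cells) in the knockout library, a ratio of 0.332 (0.244 to 0.450). It was past 2-fold in all 9 alternatives tried. Of these cells, 8 of 60 and 2 of 54 had at least 2 neutrophil markers, while the class's summed neutrophil markers were higher in the knockout library (87.7 and 176 CPM). Fibroblast-like cells of the control library thus held 0.169 Il1r2 UMIs per Il1r1 UMI and those of the knockout library 0.0437. Il1rap was 22.9 and 23.7 CPM, and Il18 26.8 and 20.6 CPM.

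In epithelial/tumour-like cells, 9 members were counted, with 1 at least 2-fold higher and 0 lower in the knockout library, beside 4.85% and 2.38% of 16923 genes. The higher one was Il18r1, at 0.374 and 1.15 CPM, with a UMI in 26 of 6337 control and 50 of 4546 knockout cells. Of those cells, 2 of 26 and 16 of 50 carried at least 2 T markers, against 0.269% and 0.756% of the others, and the class's summed T markers were 3.06 and 11.5 CPM. Cluster 8 accounted for 45 of the 100 knockout UMIs. Il1rap was 7.76 and 8.50 CPM.

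Il18r1, the IL-18 receptor chain of T and NK cells, had a similar level in T-like cells of both libraries and a larger total in the knockout library. T-like cells carried it at 264 CPM in 187 control and 231 CPM in 1615 knockout cells, a ratio of 0.874 (0.747 to 1.03). The thinned share with a UMI was 22.5% in the control and 20.2% in the knockout library, against 0.0158% and 0.110% of epithelial/tumour-like cells. Over all kept cells it was 3.05 and 16.5 CPM, a ratio of 5.43 (4.93 to 5.99), alongside the larger share of T-like cells. NK-like cells had 228 CPM in 39 control and 349 CPM in 246 knockout cells (ratio 1.53, 1.06 to 2.28). Among T-like clusters the highest was cluster 28, with Tox and Cd4, at 648 CPM in 36 control and 351 CPM in 181 knockout cells (ratio 0.542, 0.425 to 0.696). The other 4 lay between 145 and 297 CPM in the knockout library, with intervals of the ratio that spanned 1. Il18rap, the partner chain of the IL-18 receptor, had a UMI in 45.7% of control and 31.3% of knockout T-like cells with Il18r1, against 19.7% and 12.6% of those without. Unnamed cluster 11 also held Il18r1, 41.7 CPM in the control and 149 CPM in the knockout library, and its 215 control UMIs were more than the 173 of the T-like cells.

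Of the 7 members counted in T-like cells, 1 was at least 2-fold higher and 3 lower in the knockout library, beside 4.35% and 5.84% of 11256 genes. The higher one, Il1r1, had 0 control and 22 knockout UMIs. The knockout level of 3.26 CPM lies under the 4.58 CPM that a count of 0 allows in the control class, so no fold is given. Il18 (5 and 23 UMIs) and Il33 (6 and 28 UMIs) are not T cell genes, and their ratios had intervals that spanned 1 (0.166 to 1.50 and 0.184 to 1.34). None of the 4 was past 2-fold with each cell classed by its own markers.

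The remaining one was Il1rl1, the gene of the IL-33 receptor ST2, at 35.1 CPM in the control and 13.2 CPM in the knockout T-like cells, a ratio of 0.376 (0.235 to 0.623). It rested on 23 UMIs in 8 control cells, against 89 UMIs in 54 knockout cells. The thinned share of T-like cells with a UMI was 3.37% in the control and 1.45% in the knockout library, with intervals that overlapped (1.25% to 7.19% and 0.924% to 2.17%). The class's log2 ratio of -1.46 was -0.13 with each cell classed by its own markers and -2.14 with clusters weighted alike. Of the 8 control cells, 6 had a UMI of Gata3, a factor of type 2 lymphocytes, and 0 had Foxp3, which marks regulatory T cells. Of the 54 knockout cells, 23 had Gata3 and 18 had Foxp3. Among T-like cells without Il1rl1, Gata3 was found in 17.3% of control and 19.03% of knockout cells, and Foxp3 in 3.91% and 12.4%. For the 8 control cells, 0 with Foxp3 allows a share of up to 36.9%, so these counts show no change in the kind of cell. Cluster 32, with Lef1, held 15 of the 23 control UMIs, in 3 of its 24 control cells. Cluster 25, the Foxp3 cluster (278 and 263 CPM of Foxp3), had Il1rl1 at 74.2 CPM in 19 control and 35.1 CPM in 319 knockout cells, with an interval of the ratio from 0.170 to 1.82. Over all kept cells there were 201 and 150 Il1rl1 UMIs, in 111 and 94 cells. Most of the 111 control cells were not T-like: 53 were in unnamed clusters, 39 were epithelial/tumour-like and 8 T-like. In the knockout library 5, 23 and 54 of the 94 were. These classes differ in size and depth: in the control library, 6337 epithelial/tumour-like cells at a median of 15442 UMIs against 187 T-like cells at 2823. Thinned to 1000 UMIs, 0.0158% of control and 0.0441% of knockout epithelial/tumour-like cells had an Il1rl1 UMI, against 3.37% and 1.45% of T-like cells. At least 3 type 2 innate lymphoid markers were found in 3 of the 111 and 10 of the 94, and at least 3 mast cell markers in 3 and 0.

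Il1r2 was also found in T-like cells, at 51.9 CPM in the control and 45.3 CPM in the knockout library (ratio 0.874, 0.612 to 1.28). In the knockout library these cells held 27.4% of all Il1r2 UMIs. Cluster 28 was highest, at 191 and 184 CPM, followed by the Foxp3 cluster 25 with 92.8 and 72.0 CPM. Of 111 knockout T-like cells with Il1r2, 65.8% had a Cd4 UMI and 32.4% a Foxp3 UMI, against 24.1% and 11.6% of the rest, though their median depth was 5997 UMIs against 3241. None of the 111 or of the 13 control cells had at least 2 neutrophil markers.

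**Figure D5:**
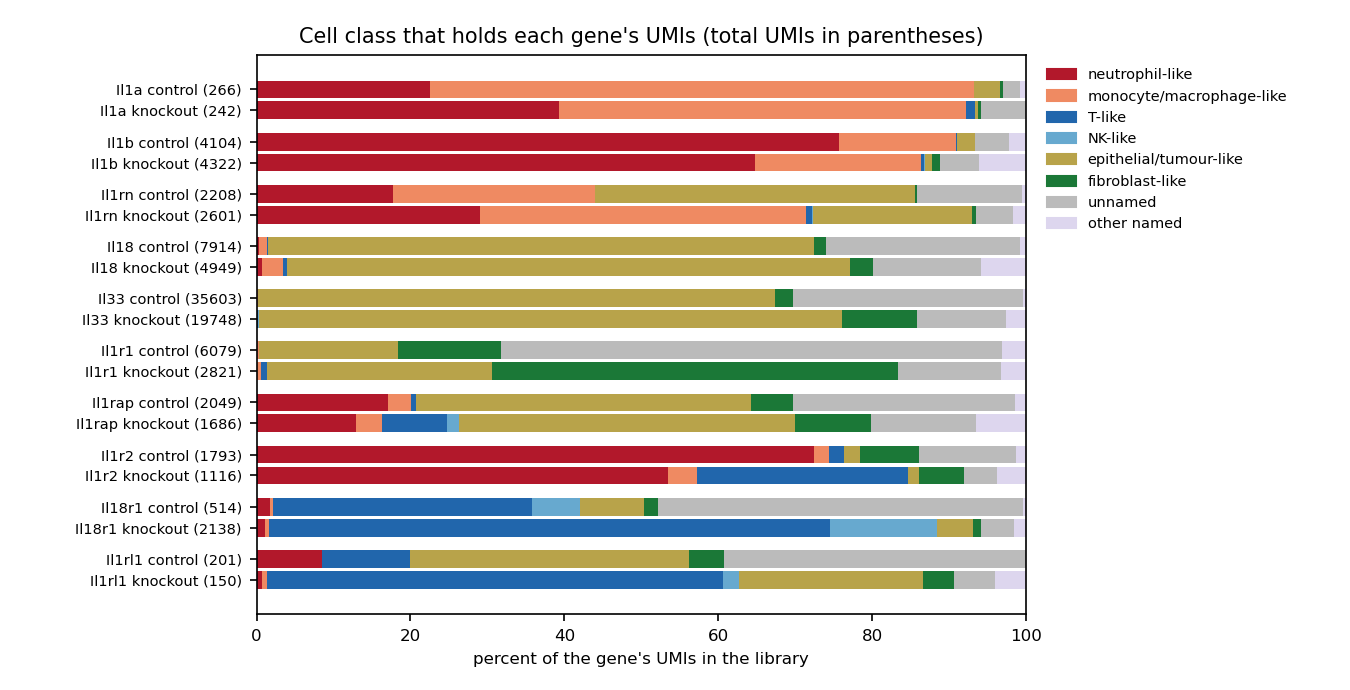
Percent of each gene's UMIs held by each cell class, for the control and knockout libraries, with the gene's total UMIs in parentheses. Neutrophil-like cells hold 75.7% and 64.8% of Il1b, T-like cells 33.7% and 72.9% of Il18r1, and unnamed clusters 65.1% and 13.4% of Il1r1.

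The receptor genes Il1r2, Il1r1, Il1rl1 and Il18r1 lie in this order within 427 kb of chromosome 1 on the plus strand (GRCm38, 40074079 to 40500854). Il18r1 (40465552 to 40500854) begins 136 bases after the end of Il1rl1 (40429570 to 40465415). Of the others, Il18 is on chromosome 9 (50554827 to 50581840), Il1rap on chromosome 16 (26581704 to 26730117) and Il33 on chromosome 19 (29925114 to 29960718), all on the plus strand.

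Of 69 other IL-1 pathway symbols listed, 65 matched a row. Summed over the 5 classes, 243 class values had at least 20 UMIs, of which 15 were at least 2-fold higher and 24 lower in the knockout library. Over all genes the shares ranged by class from 2.74% to 7.42% higher and from 2.38% to 7.29% lower. With at least 100 UMIs asked for, they were 7 and 13 of 190. Neutrophil-like cells had 10 higher and 7 lower of 45, beside 7.42% and 7.29% of all genes there. Among feedback and response genes there, Nfkbia, the NF-κB inhibitor that NF-κB itself induces, was 1207 CPM in the control and 3198 CPM in the knockout library. Cxcl2, a neutrophil chemoattractant, was 5925 and 16021 CPM, and Icam1, an adhesion molecule, 71.5 and 182 CPM. Irak2, a kinase of the receptor complex, was 529 and 1130 CPM. Cxcl2 also leads cluster 33, which was 133 of 293 control and 141 of 185 knockout neutrophil-like cells. The part of this make-up in the higher values was not tested. Lower in the knockout library were the serine proteases Elane (1113 and 119 CPM), Ctsg (124 and 15.2 CPM) and Prtn3 (481 and 162 CPM), which can cleave IL-1 family precursors, the pore-forming Gsdme (240 and 110 CPM) and the granule protein Lcn2 (4803 and 2206 CPM). Elane, Ctsg, Prtn3 and Lcn2 are genes of immature neutrophils, and the Camp cluster 26 held 54 control and 11 knockout cells.

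The acute-phase gene Saa3, which IL-1 can induce, was lower in the knockout library in 3 classes: 459 and 104 CPM in fibroblast-like, 418 and 95.7 CPM in monocyte/macrophage-like, and 6.29 and 0.716 CPM in epithelial/tumour-like cells. Saa3 also leads unnamed cluster 11, which held 265 control and 47 knockout cells. The part of that cluster's RNA in these values was not tested. Ccl2, a monocyte chemoattractant, was 204 and 55.3 CPM in fibroblast-like cells. Cxcl2 went in opposite directions by class, lower in monocyte/macrophage-like cells (684 and 316 CPM) and higher in fibroblast-like cells (3.45 and 27.3 CPM). Cxcl1 was 38.5 and 17.9 CPM in monocyte/macrophage-like cells. In epithelial/tumour-like cells Ccl20, a chemokine, was 0.967 and 0.150 CPM and Aim2, an inflammasome sensor of DNA, 0.514 and 1.10 CPM. In T-like cells Tab1, an adaptor of the TAK1 kinase, was 30.5 and 15.5 CPM.

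The genes whose levels were most like each member's were found over 56 pairs of a cluster and a library, among 14035 genes. These pairs share 2 libraries and differ in depth, and the correlations (Pearson's r of log2 of CPM plus 10) are descriptions. For Il1b they were Nlrp3 (r = 0.965), the inflammasome sensor upstream of caspase-1, Tlr13 and Ptafr. For Il1rn they were Clec4d (r = 0.954), Clec4n and Ptafr. For Il33 they were Fbln2 (r = 0.949), Prrx2 and Twist1, genes of mesenchymal cells. Il1r1 went with Osmr (r = 0.935), the oncostatin M receptor, Tgfb2 and Ak5. Among those of Il18r1 were the T cell signalling genes Skap1 and Prkcq. Il1r2 went with Cass4 (r = 0.921), Hdc and Plk3, Il1rap with Gm11476 (r = 0.921), Trim30b and Dgat2, and Il1a with Fam71f2 (r = 0.943), Tmem189 and 4930430E12Rik. Il18 (Eps8, r = 0.797, then Acer3 and Mvp) and Il1rl1 (Gm45345, r = 0.748, then Atp6v1g2 and Gm13708) had weaker matches.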

How the data were processed

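The deposited matrices hold raw UMI counts per gene and cell barcode, and per the file headers the software was Cell Ranger 8.0.0. The submitters' processing notes list Cell Ranger 3.1.3 and mm10. Nothing in the sources used here settles the version or names the annotation. Gene identifiers were placed on GRCm38 with GENCODE M21.

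A minimum of 500 genes and a mitochondrial share of 15% or less decided which cells stayed (84.7% of control and 88.2% of knockout barcodes), and Scrublet (scanpy 1.11.5, expected rate 0.08) called and removed 148 and 341 doublets. The 2000 most variable genes, 30 principal components, 15 neighbours and Leiden resolution 1 gave clusters, and leukocyte clusters were clustered again, with no batch correction. Of the members, 9 were among the variable genes. Clusters were named from lists of 24 cell types, needing 3 detected markers. Rebuilt names can differ from the study's. The members and lists were chosen with earlier results of these data known.

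UMIs were summed per class and divided by the class total (CPM). Log2 ratios add 1 UMI, classes needed 100 cells per library and genes 20 UMIs. Intervals are exact 95% Poisson, conditional or Clopper-Pearson intervals (scipy 1.17.1), for counting error only. A count of 0 has a floor of 3 counts. With 1 pooled library per group no test was run and no p-value is given. On simulated counts the scripts recovered the changes put in. Shares of cells were thinned to 1000 UMIs, and shallower cells left out. Named genes are all members, pathway genes past 2-fold with at least 100 UMIs (at most 4 per list group and class), and the 3 genes most correlated with each member. For Il18r1, 1 of these 3 is not reported here. Alternatives varied filter, doublets, resolution, clustering genes, class rule, weighting, count minimum, pseudocount and centring.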

Additional observations from a re-analysis of the deposited data

Results flagged for a closer look

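These 5 members had counting intervals on opposite sides of equality in different classes, which is why they are listed. None of these differences between classes was tested, since each class is 1 library per genotype. Il1a had a log2 ratio of 1.49 in neutrophil-like cells and -0.83 in monocyte/macrophage-like cells. Il1rn was at 1.78 in neutrophil-like and -0.37 in epithelial/tumour-like cells. Il18 was at 1.47 in neutrophil-like cells, against -0.23 in epithelial/tumour-like cells and -0.38 in fibroblast-like ones. Il33 was at 0.67 in fibroblast-like and -1.28 in monocyte/macrophage-like cells. Il1b was at 2.59 in fibroblast-like cells, where 10 cells held all its knockout UMIs, and at -0.83 in epithelial/tumour-like cells.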

How the results depend on the processing

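The count of members at least 2-fold apart depended on the class definition and on the count minimum. In T-like cells (4) it was 2 with the stricter cell filter and with clusters weighted alike, 1 with at least 100 UMIs and 0 with each cell classed by its own markers. That last setting turned Il18 (log2 ratio 0.26, from -1.36) and Il33 (0.73, from -1.31). In epithelial/tumour-like cells (1) it was 3 with clusters weighted alike, and 2 with members and pathway genes left out of clustering, with own markers, with unnamed clusters closest to that class added, and with at least 1 UMI. In fibroblast-like cells (2) it was 4 with own markers and 1 with the stricter filter or at least 100 UMIs. In monocyte/macrophage-like cells (1) it was 2 as a mean over cells, with doublets kept, at Leiden resolution 0.5 or with at least 1 UMI, and 0 with clusters weighted alike or at least 100 UMIs. In neutrophil-like cells (4) it was 2 as a mean over cells or with at least 100 UMIs, and 1 with clusters weighted alike. Pathway values past 2-fold (39) were 20 with at least 100 UMIs and 61 with at least 1 UMI. The causes were not tested, beyond fewer or more genes being counted. Adding keratin-positive unnamed clusters to the epithelial/tumour-like class was chosen after seeing the data. No paired analysis was possible because each genotype is 1 pooled library.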
